A study of Mus musculus with 2 samples.

Results

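The genes described here encode the carriers that move sugars, amino acids and lactate across cell membranes. They were taken by gene name, as the protein-coding genes of the mouse solute carrier families 1, 2, 3, 6, 7, 16, 36, 38 and 43, which gave 90 of the 54532 genes in the deposited count table. Slc7a6os, a neighbour of Slc7a6 that encodes no transporter, is among the 90 because its symbol begins in the same way. Messenger RNA had been sequenced from 2 cultures of CMT167R cells, a line derived from CMT167 mouse lung carcinoma that the labels call resistant to anti-PD1, an antibody that releases T cells from inhibition. The untreated culture (CON) gave 1 library, and a culture kept for 24 h in 50 nM of a compound named only PKCi gave the other. The sources used here do not say how the resistance was obtained or which compound PKCi is.

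Levels are given as counts scaled to 1000000 counts of the library (CPM), so that 16.1 counts made 1 CPM in either library. Comparisons of level between genes use TPM, the count per base of listed gene length scaled to 1000000 per library. The libraries held 16090186 (CON) and 16071153 (PKCi) gene counts, and 11700 and 11924 genes reached 1 CPM. A gene with a count of 0 could lie as high as 0.186 CPM in CON and 0.187 CPM in PKCi, the level of 3 counts. With 1 library per condition no test across conditions was possible, no difference below has a replicate check, and treatment and culture cannot be told apart. Each ratio of CPM carries an exact conditional binomial (Clopper-Pearson) 95% interval, which covers counting error only. Of 6 epithelial markers 5 reached 1 CPM, led by the keratin genes Krt8 (933 and 1182 CPM) and Krt18 (643 and 765 CPM). The others were much lower, with Krt19 at 59.7 and 71.1 CPM, Epcam at 3.48 and 6.3 CPM and Cdh1 at 2.92 and 3.36 CPM. Cldn4, at 0.124 and 0.187 CPM, did not reach 1 CPM. One of the protocols in the labels speaks of retina, yet 6 of 8 retina markers had 0 counts in both libraries and their summed level was 0.124 and 0.373 CPM. Leukocyte markers summed to 8.52 and 3.61 CPM, with 7 of 10 at 0 in both libraries and nearly all counts from Lyz2, and endothelial markers to 0.497 and 0.685 CPM, with 1 of 5 at 0. Fibroblast markers summed to 12.8 and 13.9 CPM with 0 of 6 at 0 in both. The near-equal sum covers opposite directions. Col1a1 had 143 and 70 counts and Col1a2 5 and 0, while Pdgfra had 43 and 97, Col3a1 14 and 38, Dcn 1 and 17 and Lum 0 and 1. The part of these marker differences in the results was not tested.

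Solute carriers let small polar molecules cross membranes, either down a gradient or coupled to sodium, protons or the exchange of another solute. Glucose enters most cells through Slc2 proteins, lactate leaves or enters with a proton through Slc16 proteins, and amino acids are shared among many carriers with overlapping substrates. Light chains of the Slc7 family reach the surface bound to a heavy chain of the Slc3 family, and tumour cells are known for high levels of Slc2a1, Slc1a5, Slc7a5, Slc7a11 and Slc16a1.

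In the PKCi library Slc7a11, which imports cystine in exchange for glutamate, was 5.05-fold higher, while Slc7a5, which imports leucine and other large neutral amino acids, was 2.38-fold lower and the lactate carrier Slc16a1 2.50-fold lower. Relatives of the last pair lay on both sides. Slc43a2, which also carries large neutral amino acids, was 2.68-fold higher and Slc16a11, of the same family as Slc16a1, 2.48-fold higher. Slc16a6, also of that family, was 2.20-fold lower, and of the relatives of Slc7a5, Slc7a6 was 1.23-fold lower and Slc7a8 had 15 and 0 counts. Slc3a2, the heavy chain that both Slc7a11 and Slc7a5 need, was at almost the same level in both libraries. The main glucose carrier Slc2a1 and the glutamine and alanine carrier Slc38a2 were 1.78-fold and 1.63-fold higher. In RNA from whole cultures, a change in the share of cells with a message and a change in its level per cell cannot be told apart.

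Of the 90 genes, 32 reached 1 CPM in at least 1 library and are called measured. On the log2 ratio of CPM + 1, 4 of the 32 were at least 2-fold higher in the PKCi library, where 6.53% of all 12273 measured genes were, and 3 were at least 2-fold lower, where 5.13% of all were. At least 1.5-fold, 11 of 32 were higher against 16.8% of all measured genes, and 3 lower against 16.7%. The median log2 ratio of the 32 was 0.27 and that of all measured genes −0.01, with 22 of the 32 above 0 and 10 below. Among 141 other measured solute carrier genes of the same table the median was −0.01, where 9.22% were higher by 2-fold or more and 6.38% lower by as much. The counting interval itself lay beyond 2-fold for the same 4 higher members (5.2% of all measured genes) and for 2 of the lower ones (3.42% of all). No test set these shares against each other. The members nearest to the 2-fold limit were Slc16a6, just past it at a log2 ratio of −1.01, and Slc16a8, just short of it at 0.94. Slc16a8 and Slc43a3 were measured through 1 library only.

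**Figure D1:**
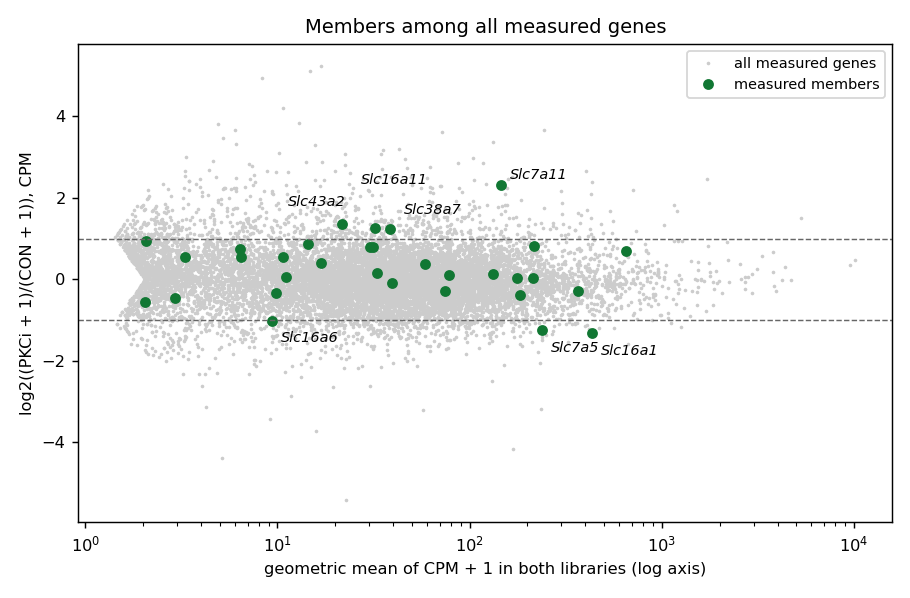
Log2 ratio of CPM + 1 (PKCi over CON) against the geometric mean of CPM + 1, with a grey point for each of 12273 measured genes and a green point for each of the 32 measured members; dashed lines mark 2-fold. The 4 members above the upper line and the 3 on or below the lower one are named, with Slc7a11 the farthest from 0 at 2.32.

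Of the 58 genes under 1 CPM in both libraries, 32 had no count at all and none exceeded 15 counts. The 32 without a count include the neuronal and epithelial carriers Slc6a3, Slc6a14, Slc1a1 and Slc38a5. Slc16a3, a lactate exporter of many glycolytic cells, had 10 counts in each library, and Slc2a3, the high-affinity glucose carrier, had 0 and 1. Slc3a1, the second heavy chain, had 3 counts untreated and 8 with PKCi, a difference not detectable at this depth. Slc7a8, a light chain related to Slc7a5, had 15 counts in CON and 0 in PKCi. Against a floor of 3 counts per library it was at least 4.99-fold lower, though its 95% interval, in which the CON count varies too, reaches down to 3.58-fold. Slc1a7 had 0 and 10 counts and Slc16a5 0 and 8, at least 3.34-fold and 2.67-fold higher against the same floor, with intervals that reach down to 2.24-fold and 1.71-fold.

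**Figure D2:**
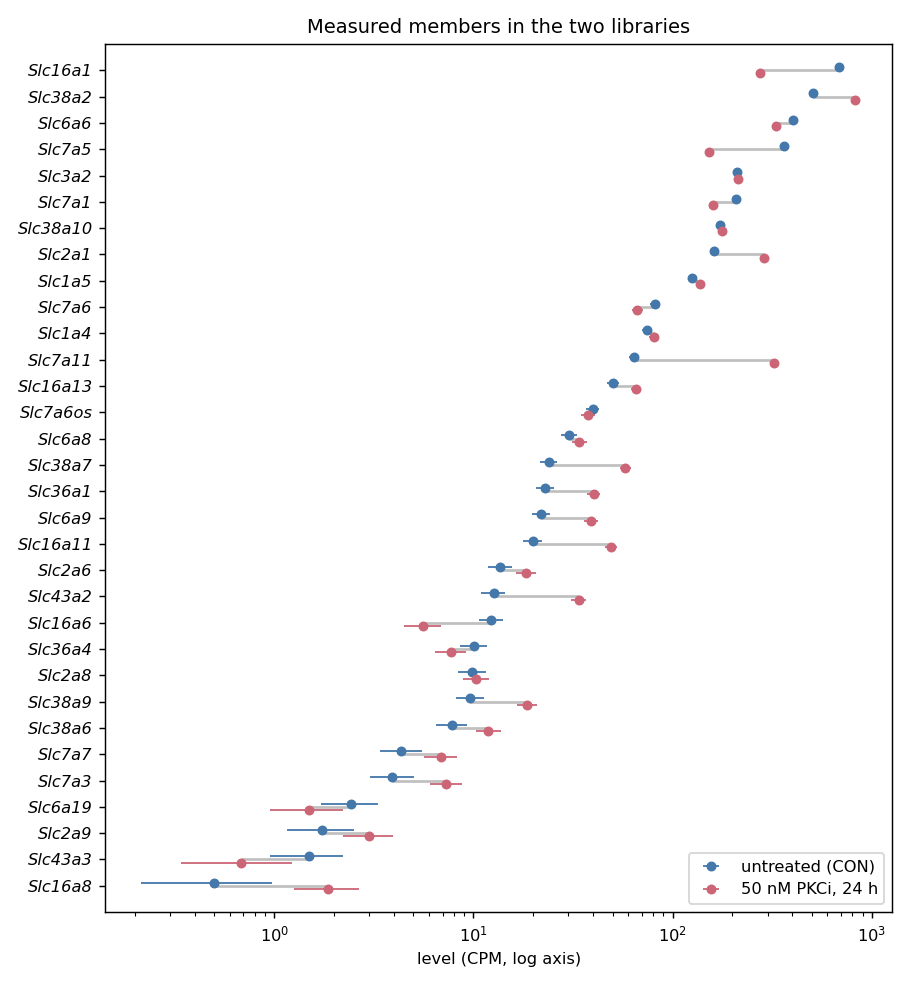
Level of each of the 32 measured members in CPM on a log axis, with blue points for the untreated library, red points for the PKCi library, bars for exact 95% Poisson counting intervals and grey lines joining the libraries. Levels ran from 0.497 CPM (Slc16a8 untreated) to 827 CPM (Slc38a2 with PKCi), and the longest grey line belongs to Slc7a11.

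Promoter sequences are shown for Slc7a11 and Slc16a1, which had the highest and lowest log2 ratios, and for Slc38a7 and Slc36a1, which encode lysosomal amino acid carriers, were both higher in the PKCi library and held E-boxes. Slc38a9, also of the lysosome and higher, had no match of any motif searched in its window and is not shown. RefSeq windows (GRCm38.p6), of 250 bases before to 50 after a start site, were at hand for 65 of the 90 genes and for 24 of the 32 measured ones. As 8 of the measured genes had no window, a comparison of motif content over the whole group was void, and single promoters are described instead. Both strands were searched for AP-1 (TGANTCA), the C/EBP-ATF composite element (TGATGNAA), the E-box (CACGTG), the NF-kB site and the antioxidant element (TGACNNNGC, which can overlap the E-box and AP-1). Capitals mark matches, and each sequence runs 5′ to 3′ on the strand of its gene from 250 bases before to 10 after the start.
Slc7a11: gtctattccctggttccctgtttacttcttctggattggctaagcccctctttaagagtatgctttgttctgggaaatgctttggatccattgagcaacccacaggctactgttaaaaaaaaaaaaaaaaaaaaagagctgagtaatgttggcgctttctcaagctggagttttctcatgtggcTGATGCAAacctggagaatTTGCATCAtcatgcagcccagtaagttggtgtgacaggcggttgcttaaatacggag
Slc16a1: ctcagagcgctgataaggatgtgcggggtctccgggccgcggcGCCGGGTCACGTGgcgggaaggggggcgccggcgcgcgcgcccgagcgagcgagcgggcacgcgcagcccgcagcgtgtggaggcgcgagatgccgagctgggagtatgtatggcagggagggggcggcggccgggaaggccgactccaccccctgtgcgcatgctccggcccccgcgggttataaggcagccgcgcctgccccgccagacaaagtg
Slc38a7: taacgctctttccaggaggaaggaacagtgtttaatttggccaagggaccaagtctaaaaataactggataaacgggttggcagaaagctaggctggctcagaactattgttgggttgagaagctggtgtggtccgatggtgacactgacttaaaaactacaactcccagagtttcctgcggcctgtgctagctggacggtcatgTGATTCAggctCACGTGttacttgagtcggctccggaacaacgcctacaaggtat
Slc36a1: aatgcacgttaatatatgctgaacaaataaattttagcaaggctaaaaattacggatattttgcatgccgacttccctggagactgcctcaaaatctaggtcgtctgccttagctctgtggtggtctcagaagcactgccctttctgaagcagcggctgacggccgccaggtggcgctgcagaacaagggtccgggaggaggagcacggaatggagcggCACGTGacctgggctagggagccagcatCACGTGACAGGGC
They lie at chr3:50443604-50443863 (minus strand), chr3:104638414-104638673 (plus), chr8:95853482-95853741 (minus) and chr11:55204090-55204349 (plus). The Slc7a11 window held a pair of C/EBP-ATF composite matches in opposite orientation, beginning 66 and 47 bases before the start. At least 1 such match stood in 3.97% of all 32851 windows and 2 or more in 0.0700%. Slc7a11 was not alone among the members, as 4 of their 33 windows, from 24 genes, held a match. These were windows of Slc7a11, Slc7a7 and Slc1a4, and the Slc7a7 windows among them overlap and share a match. A window of Slc7a7 (1.57-fold higher) also held a pair, beginning 141 and 1 bases before its start. The Slc1a4 match (ratio 1.08) began 4 bases before. Elements of this kind are known as amino acid response elements, which ATF4 can bind. The Slc36a1 window held a pair of E-boxes that began 31 and 3 bases before the start, where 7.15% of all windows held at least 1 and 0.594% at least 2, and the second of them overlapped an antioxidant element match. In the Slc38a7 window an AP-1 match (7.81% of all windows) began 45 bases and an E-box 34 bases before the start. The E-box of the Slc16a1 window, 200 bases before the start, likewise overlapped an antioxidant element match (12.4% of all windows). NF-kB matches stood in 1.63% of all windows and in none of these 4. E-boxes stood in 3 of the 33 windows of measured members (9.09%), those of Slc36a1, Slc38a7 and Slc16a1, the last lower in the PKCi library. Antioxidant element matches stood in 8 of the 33 (24.2%). Neither share can be set against all windows, for the reason given above. The windows also differed in base content, with a median of 60.3% GC for the members and 52.7% over all. As Slc38a7 and Slc36a1 were picked in part for holding E-boxes, the E-box shares of all windows are no evidence about them. These are matches of letters only, and binding was not measured.

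Heavy and light chains of the heteromeric exchangers differed in direction. Slc3a2, the CD98 heavy chain, was at 211 CPM in CON and 214 CPM in PKCi (counts of 3394 and 3443, ratio 1.02, with a 95% interval of 0.968 to 1.07). Its level was thus nearly the same in both libraries, while the light chains around it were not. Slc7a11 was at 64.1 CPM in CON and 324 CPM in PKCi (counts of 1031 and 5201, 5.05-fold higher, with a 95% interval of 4.72 to 5.41). Its log2 ratio of 2.32 ranked at place 68 of the 12273 measured genes. The gene (ENSMUSG00000027737) lies on the minus strand of chromosome 3, from 49892526 to 50443614. The genes that overlap it held at most 6 counts in a library. Slc7a5 was at 364 CPM in CON and 153 CPM in PKCi (counts of 5862 and 2456, 2.38-fold lower, with a 95% interval of 2.27 to 2.50). It lies on chromosome 8 from 121881150 to 121907694 on the minus strand (ENSMUSG00000040010). Slc7a6, which exchanges cationic for neutral amino acids, was at 81.8 and 66.6 CPM (1.23-fold lower, 95% interval 1.13 to 1.33). Its relative Slc7a7 was at 4.35 and 6.85 CPM (counts of 70 and 110, 1.57-fold higher, with a 95% interval of 1.16 to 2.16). Slc7a7 overlaps Oxa1l on the other strand by 232 bases (1005 and 997 counts), and the strand setting of the counting is not given.

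Per length, the make-up of the light chain messages differed between the libraries. Slc7a5 stood for 80.4% of the summed light chain TPM untreated and 50.8% with PKCi, and Slc7a11 for 3.76% and 28.7%. Slc7a6 stood for 14.6% and 18.0%. The level of Slc7a5 was 21.4 times that of Slc7a11 untreated and 1.77 times with PKCi. Light chain TPM summed to 397 and 265, which was 2.05 and 1.34 times the TPM of Slc3a2. The listed lengths of Slc7a11 and Slc3a2, 13922 and 3529 bases, exceed the 9223 and 1819 bases of their principal transcripts in GENCODE M21. With principal transcript lengths the share of Slc7a11 was 5.17% and 35.3%, and Slc7a5 stood at 14.9 and 1.24 times its level. The light chain sum was then 1.16 and 0.844 times the level of Slc3a2, so whether it exceeded the heavy chain with PKCi depends on the length used.

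**Figure D3:**
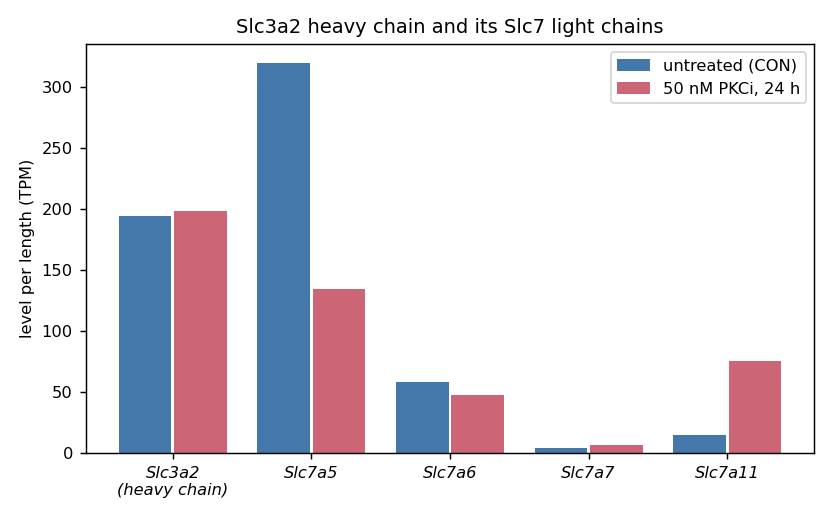
Level per listed gene length (TPM) of the Slc3a2 heavy chain gene and of the 4 measured Slc7 light chain genes in the untreated (blue) and PKCi (red) library, 1 library per bar. Slc3a2 was at 194 and 198 TPM, Slc7a5 at 319 and 135 TPM, and Slc7a11 at 14.9 and 75.9 TPM.

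The carriers of lactate and related acids held both higher and lower members. Slc16a1, which moves lactate and pyruvate with a proton, was at 686 CPM in CON and 274 CPM in PKCi (counts of 11038 and 4409, 2.50-fold lower, with a 95% interval of 2.42 to 2.59). By TPM on listed lengths it ranked first of the 90 genes untreated (503 TPM) and at place 3 with PKCi (202 TPM), and with principal transcript lengths first and at place 4. Its share of the summed TPM of all 90 genes was 23.6% and 9.92% (17.7% and 6.96% with principal lengths). The gene lies on chromosome 3 from 104638668 to 104658462 on the plus strand (ENSMUSG00000032902). Slc16a6, a carrier linked to ketone bodies, was at 12.3 and 5.60 CPM (counts of 198 and 90, 2.20-fold lower, with a 95% interval of 1.70 to 2.85). It overlaps Amz2 on the other strand by 1959 bases (687 and 900 counts). Overlaps here were taken between gene starts and ends, introns included, and shared exon bases were not examined. Whether its level depends on the use of strand was therefore not tested.

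Slc16a11, a proton-coupled monocarboxylate carrier, was at 19.8 and 49.2 CPM (counts of 319 and 790, 2.48-fold higher, with a 95% interval of 2.17 to 2.83). Its neighbour Slc16a13, another family member, ends 371 bases away on the other strand of chromosome 11 and was at 50.5 and 65.6 CPM (1.30-fold higher, 95% interval 1.19 to 1.43). Both were thus higher in the PKCi library, with intervals that do not overlap. Slc16a8, known as the lactate carrier of the retinal pigment epithelium, had 8 and 30 counts (3.75-fold, 95% interval 1.68 to 9.48). Summed over 14 Slc16 genes the level was 770.3 CPM in CON and 399 CPM in PKCi. Per length, Slc16a1 stood for 83.7% of the family untreated and 56.9% with PKCi, Slc16a13 for 10.5% and 23.2%, and Slc16a11 for 4.19% and 17.7%. Basigin (Bsg), the chaperone that carries Slc16a1 to the surface, was at 518 and 512 CPM (ratio 0.990, 95% interval 0.960 to 1.02).

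Sugar carriers were represented by 4 measured genes of 12, all with log2 ratios above 0 and none at least 2-fold. Slc2a1, the main glucose carrier of proliferating cells, was at 161 and 287 CPM (counts of 2596 and 4615, 1.78-fold higher, with a 95% interval of 1.70 to 1.87). Per length it stood for 85.3% of the family untreated and 89.2% with PKCi. It lies on chromosome 4 from 119108711 to 119137983 on the plus strand (ENSMUSG00000028645). Slc2a6 and Slc2a8, hexose carriers found mainly on internal membranes, were at 13.6 and 18.4 CPM and at 9.88 and 10.3 CPM, with 95% intervals of the ratio from 1.13 to 1.62 and from 0.836 to 1.31. Only the first of these intervals excludes 1. The urate carrier Slc2a9 had 28 and 48 counts (1.72-fold, 95% interval 1.06 to 2.84).

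Sodium-coupled carriers of the Slc38 family were the group with the highest median log2 ratio among those with 3 or more measured genes, 0.71 over 5 measured of 11, all above 0. Slc38a2, which takes up alanine, glutamine and other small neutral amino acids, was at 507 and 827 CPM (counts of 8155 and 13288, 1.63-fold higher, with a 95% interval of 1.59 to 1.68). With 306 TPM it held first place among the 90 genes in the PKCi library, as it did with principal lengths. Slc38a7, a lysosomal glutamine carrier, was at 23.9 and 57.9 CPM (counts of 385 and 930, 2.42-fold higher, with a 95% interval of 2.15 to 2.73). Slc38a9, the lysosomal arginine sensor of the mTORC1 pathway, was at 9.63 and 18.5 CPM (counts of 155 and 298, 1.93-fold higher, with a 95% interval of 1.58 to 2.35). Slc38a6 was at 7.83 and 11.9 CPM. Slc38a10 was at 174 and 178 CPM (ratio 1.02, 95% interval 0.970 to 1.08), the member of this family closest to an equal level. Slc38a1, next to Slc38a2 on chromosome 15 and of like function, had only 7 and 8 counts.

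Slc36 carriers couple amino acids to protons, in part on lysosomes. Slc36a1 was at 22.8 and 40.1 CPM (counts of 367 and 645, 1.76-fold higher, with a 95% interval of 1.55 to 2.01), and Slc36a4 at 10.1 and 7.72 CPM (1.31-fold lower, 95% interval 1.03 to 1.66). The family's measured members thus lay on opposite sides of 1. Slc43a2, a sodium-independent carrier of large neutral amino acids like Slc7a5, was at 12.6 and 33.8 CPM (counts of 203 and 543, 2.68-fold higher, with a 95% interval of 2.28 to 3.16). Its relative Slc43a3, which carries purine bases, had 24 and 11 counts (2.18-fold lower, 95% interval 1.03 to 4.93). Slc43a2 remained far below Slc7a5 per length, at 4.08 and 10.99 TPM against 319 and 135 TPM.

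The glutamine exchanger Slc1a5 and its serine-carrying relative Slc1a4 differed little between the libraries. Slc1a5 was at 125 and 138 CPM (counts of 2010 and 2218, 1.10-fold higher, with a 95% interval of 1.04 to 1.17). Slc1a4 was at 74.5 and 80.3 CPM (1.08-fold, 95% interval 0.996 to 1.17), a difference not detectable at this depth. The glutamate carriers of this family were under 1 CPM, with Slc1a1 at 0 counts in both libraries, Slc1a2 at 4 and 1 and Slc1a3 at 2 and 0. Among carriers of cationic amino acids, Slc7a1, the main arginine and lysine importer, was at 209 and 159 CPM (1.31-fold lower, 95% interval 1.25 to 1.38), and Slc7a3 at 3.92 and 7.28 CPM (counts of 63 and 117, 1.86-fold higher, with a 95% interval of 1.36 to 2.57). Slc7a1 still stood for 94.2% and 87.5% of this group per length.

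The Slc6 family couples uptake to sodium and chloride and includes the carriers of neurotransmitters. Of its 21 genes 4 were measured, and none was at least 2-fold different. Slc6a6, the taurine carrier, was at 403 and 332 CPM (1.21-fold lower, 95% interval 1.17 to 1.26). Slc6a8, the creatine carrier, was at 30.3 and 34.1 CPM (ratio 1.13, 95% interval 0.995 to 1.28). Slc6a9, a glycine carrier, was at 21.9 and 38.9 CPM (counts of 353 and 625, 1.77-fold higher, with a 95% interval of 1.55 to 2.03), and it overlaps B4galt2 on the other strand by 5939 bases (709 and 599 counts). Slc6a19, a neutral amino acid carrier of gut and kidney, had 39 and 24 counts (95% interval of the ratio 0.354 to 1.05). Slc7a6os, which is no carrier, was at 39.7 and 37.5 CPM.

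**Figure D4:**
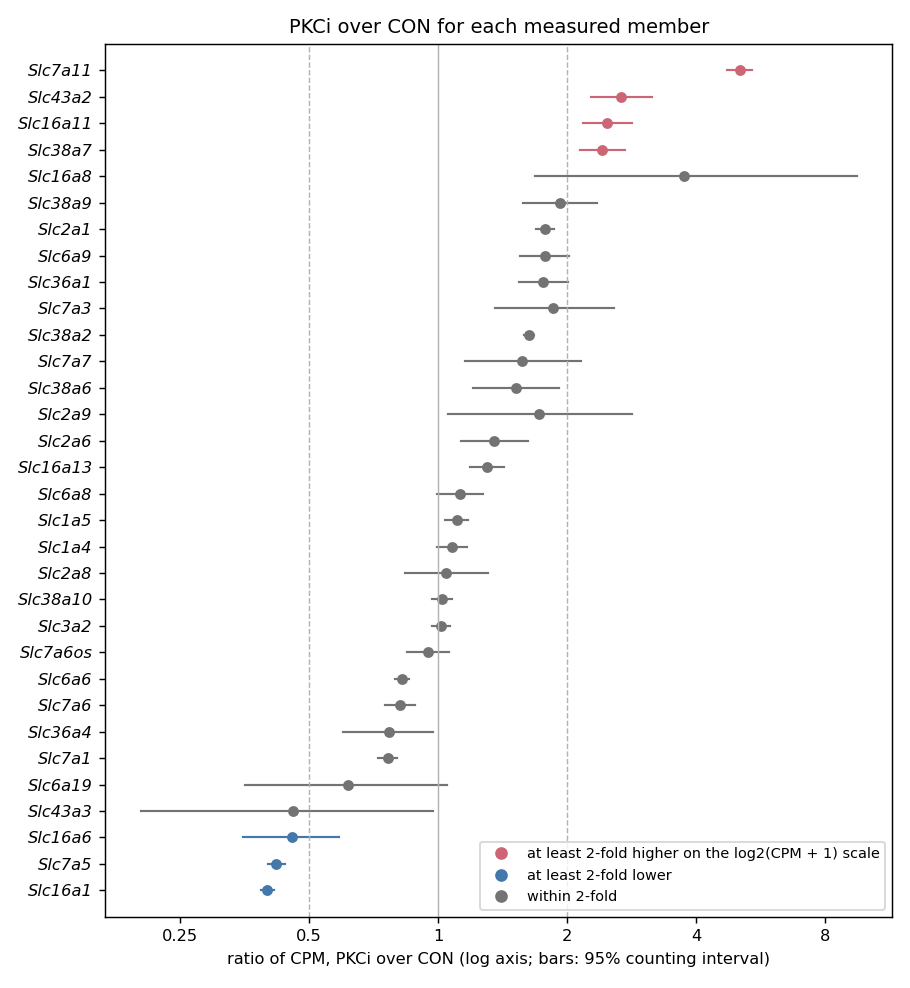
Ratio of CPM (PKCi over CON, log axis) for the 32 measured members, ordered by log2 ratio of CPM + 1, with bars for the 95% counting interval, red for at least 2-fold higher, blue for at least 2-fold lower and grey for the rest; the solid line marks 1 and the dashed lines 0.5 and 2. Intervals lie above 1 for 17 members, where they do for 34.9% of all measured genes, below 1 for 8 (37.5% of all), and include 1 for 7.

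Summed over all 90 genes the level was nearly the same, 3366 CPM in CON and 3490 CPM in PKCi (ratio 1.04, 95% interval 1.03 to 1.05). Per length the sum was slightly lower with PKCi, 2131 TPM in CON and 2040 TPM in PKCi. The 3 highest members by TPM on listed lengths were Slc16a1, Slc7a5 and Slc3a2 in the untreated library and Slc38a2, Slc2a1 and Slc16a1 in the PKCi library, and they held 47.7% and 38.01% of the sum. With principal transcript lengths they were Slc16a1, Slc3a2 and Slc38a2 untreated and Slc38a2, Slc3a2 and Slc2a1 with PKCi, with nearly equal shares of 43.4% and 43.02%. On listed lengths the Slc16 genes held 28.2% and 17.4%, the light chains 18.6% and 13.0%, the Slc38 genes 14.01% and 22.1%, and the Slc2 genes 8.22% and 14.7%. With principal lengths these shares were 21.6% and 13.04%, 15.4% and 11.2%, 18.04% and 26.9%, and 7.01% and 11.5%, each with the same direction.

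**Figure D5:**
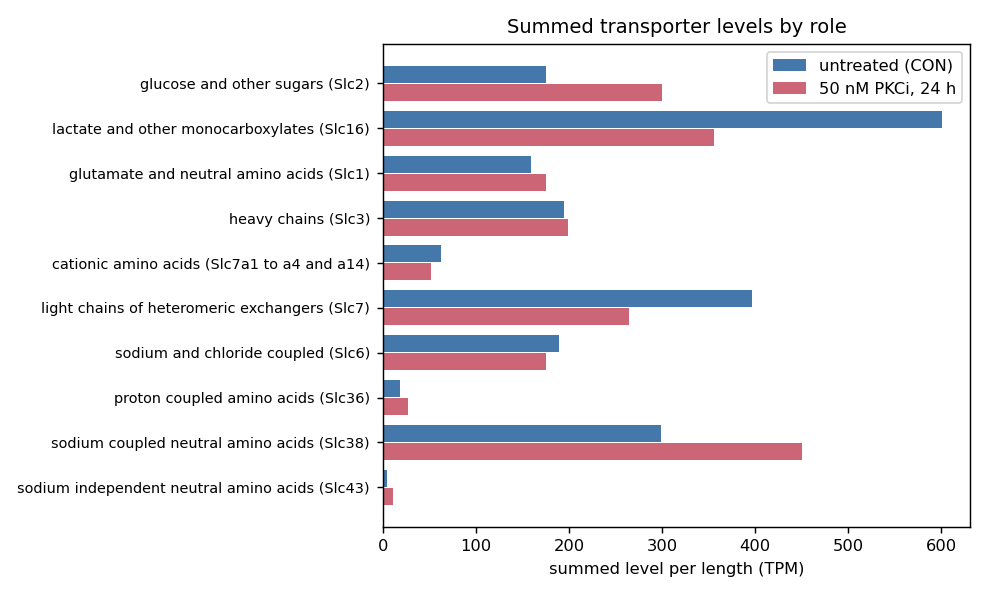
Summed level per listed gene length (TPM) of each role in the untreated (blue) and PKCi (red) library, 1 library per bar, over all genes of the role, measured or not. The Slc16 sum was 601 and 356 TPM, the Slc38 sum 299 and 451 TPM, and the Slc2 sum 175 and 300 TPM (rounded).

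Genes around these carriers were taken from 4 lists, whose counts stand beside 6.53% of all measured genes at least 2-fold higher and 5.13% lower. Of 18 listed partners and trafficking factors 15 were measured, 4 at least 2-fold higher and 0 lower (median log2 ratio 0.20). Txnip, which binds Slc2a1 and removes it from the surface, was at 3.98 and 48.3 CPM (counts of 64 and 776, 12.1-fold higher, with a 95% interval of 9.40 to 15.9), and its relative Arrdc3 at 37.4 and 107 CPM (2.87-fold higher). The related Arrdc4 had 0 counts in both libraries. Sgk1, a kinase that raises carriers at the surface, was at 274 and 649 CPM (2.37-fold higher), and Rnf5, a ubiquitin ligase that acts on Slc1a5 and Slc38a2, at 9.82 and 22.0 CPM (2.24-fold higher). Embigin (Emb), a chaperone of Slc16 proteins, was at 2.36 and 2.74 CPM.

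Amino acid sensing and transcriptional control genes had 29 of 33 measured, 1 at least 2-fold higher and 0 lower (median 0.02). The 1 was Trib3, at 54.4 and 125 CPM (2.30-fold higher, 95% interval 2.12 to 2.49). Of the 29, 16 had log2 ratios above 0 and 13 below. Ddit3 was at 22.4 and 39.8 CPM, Chac1 at 25.85 and 29.2 CPM and Sesn2 at 53.0 and 52.9 CPM. Asns, from the list of enzymes below, was at 312 and 291 CPM. Atf4 itself was at 631 and 568 CPM, Hif1a at 392 and 401 CPM, Myc at 101 and 128 CPM, and Nfe2l2, which encodes the oxidative stress factor NRF2, at 214 and 326 CPM (1.53-fold higher, 95% interval 1.46 to 1.60). Of 21 carriers of other families for like substrates, 13 were measured, 0 at least 2-fold higher and 2 lower (median −0.20). These were Slc5a3, the inositol carrier, at 109 and 34.4 CPM (3.19-fold lower), and Slc5a6, the carrier of biotin and pantothenate, at 26.4 and 10.7 CPM (2.46-fold lower).

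Enzymes that use or make the transported molecules had 23 of 30 measured, 2 at least 2-fold higher and 2 lower (median −0.35, with 15 below 0). Odc1, which makes the polyamine putrescine from ornithine, was at 736 and 4028 CPM (5.47-fold higher, 95% interval 5.37 to 5.58), and Arg2, an arginase, had 11 and 39 counts. Gls2, a glutaminase, was at 19.3 and 6.53 CPM (2.95-fold lower), and Psat1, of serine synthesis, at 603 and 276 CPM (2.18-fold lower). Phgdh, of the same pathway as Psat1, was just short of 2-fold at 1249 and 629 CPM. Ldha, which makes lactate, was at 2789 and 2650 CPM, and Gclc and Gclm, which use cysteine for glutathione, were at 61.2 and 46.5 CPM and at 198 and 147 CPM. Cbs, on the route from homocysteine to cysteine, had only 8 and 23 counts, and Cdo1, which oxidizes cysteine, 11 and 24. Cth, on the same route as Cbs, went the other way with 7 and 1 counts, under 1 CPM in both libraries. Bcat1 and Bcat2, which start the breakdown of leucine and other branched-chain amino acids, were at 123 and 76.04 CPM and at 61.9 and 41.1 CPM.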

How the data were processed

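The authors deposited 1 table of raw counts per gene for both libraries, with listed gene lengths, positions and biotypes, per the file headers; although named for FPKM, it holds whole numbers. The submitters' processing notes name HISAT2 2.0.5 and the builds GRCm38 and mm10. The counter, strand handling, annotation and filters are not given in these sources. Per the labels' descriptions, poly(A) libraries were made with a stranded kit, while another protocol field names an unstranded one. Counts were scaled to the library total (CPM), and per listed length to TPM. The log2 ratio used a pseudocount of 1 CPM, and measured means at least 1 CPM in a library. A fold is the plain ratio of CPM. Intervals and floors cover counting error only. Reads carried no molecular identifiers and so are not independent, which can make the intervals too narrow even for that error.

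Named were the members at least 2-fold different, the 10 with the highest mean TPM and 14 named whatever their values; the other measured members follow for completeness. From the lists of related genes, those past 2-fold and Bsg, Emb, Txnip and Arrdc4 were named by rule. Given as context are Atf4, Ddit3, Chac1, Sesn2, Asns, Hif1a, Myc, Nfe2l2, Phgdh, Ldha, Gclc, Gclm, Cbs, Cth, Cdo1, Bcat1 and Bcat2. Levels per length were repeated with GENCODE M21 principal transcript lengths, an alternative added after seeing the data. Members and lists were chosen with earlier results of these data known. How reads shared by near-identical or overlapping genes were assigned is unknown. The fold procedure was tested on simulated data. Python 3.11.15, scipy 1.17.1 and, for TMM factors, edgeR 4.0.16 were used.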

Additional observations from a re-analysis of the deposited data

How the results depend on the processing

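No paired analysis was possible because each group has 1 library. Under 4 other scalings (TMM, median-of-ratios size factors, a protein-coding total without the most abundant and mitochondrial genes, and TPM) the ratios of 20 named members with counts in both libraries stayed within their counting intervals, and Slc16a3 alone crossed 1 (0.992 to 1.02). Over these scalings Slc7a11 ranged from 5.002-fold to 5.13-fold and Slc3a2 from 1.01 to 1.03. Each scaling shifts the ratios of all genes by 1 common factor, so the named members are not separate checks. The 4 members at least 2-fold higher remained so under all 10 alternatives tried, joined by Slc16a8 with a pseudocount of 0.5 CPM or TPM. Slc16a1 and Slc7a5 remained at least 2-fold lower under all 10. Slc16a6 did not with TPM, with the protein-coding total, where Slc7a8 took its place, or when the counting interval had to lie beyond 2-fold. Several of the 10 could not have removed any of these genes. They were the 1.5-fold limit, no filter, the 5 CPM filter, the smaller pseudocount and leaving out Slc7a6os. At 1.5-fold the count of higher members was 11, as a lower limit takes in more genes. The median log2 ratio of the members was 0.09 with no filter, over 58 members, and 0.37 without Slc7a6os, an alternative chosen after seeing the data. Depth limits the members under about 50 counts, such as Slc16a8, Slc43a3 and Slc6a19.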

Other observations

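Several members are neighbours in the genome, and most such pairs had 1 member or neither measured. On chromosome 15, Slc38a2 (8155 and 13288 counts) lies 44478 bases from Slc38a1, which had 7 and 8 counts. On chromosome 11, Slc36a1 (367 and 645 counts) has Slc36a2 and Slc36a3 beside it, with 3 and 0 counts and with 0 in both libraries. Slc7a6 and Slc7a6os on chromosome 8 lie 2010 bases apart and had log2 ratios of −0.29 and −0.08. Slc16a11 and Slc16a13 were the only other pair within 100000 bases in which both were measured.

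The name rule also met 4 genes that do not code for protein and were left out. The pseudogene Slc2a4rg-ps had 31 and 32 counts, and the antisense genes Slc36a1os, Slc36a3os and Slc6a19os had 0 in both libraries. Among lysosomal amino acid carriers of other families, chosen for mention after their values were seen, the cystine exporter Ctns was at 13.0 and 22.1 CPM (1.70-fold higher, 95% interval 1.43 to 2.03) and Pqlc2, which exports cationic amino acids, at 14.5 and 24.1 CPM (1.66-fold higher, 95% interval 1.41 to 1.96). Mfsd12, a lysosomal cysteine carrier, was at 16.6 and 13.9 CPM, with a 95% interval of the ratio from 0.697 to 1.003. Tfe3, a transcription factor of lysosome genes, was at 32.4 and 56.8 CPM, and its relative Tfeb at 10.6 and 6.41 CPM.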
